A study of Mus musculus with 9 samples.

Results

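Expression was compared between TAMH cells kept for 6 h in medium with acetaminophen (APAP) at 2 mM and TAMH cells kept for 6 h in control medium, with 1 Affymetrix mouse array for each. TAMH is an established hepatocyte line derived from mice that carry a TGF-alpha transgene. The labels give its strain as C57BL/6 and its tissue as liver. These are 2 of the 9 arrays of the series, which holds 1 array of control, APAP and AMAP, the meta regioisomer of acetaminophen, at each of 2, 6 and 24 h, with both compounds at 2 mM. Every group is the same cell line, so all arrays share the TGF-alpha background, and the labels give 2 culture dishes per treatment but 1 array. The series' design text calls the study preliminary. No difference between 2 single arrays has a replicate check, so values are given without a test. In bulk RNA of this kind, fewer transcripts per cell and fewer cells of a kind cannot be told apart.

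Because the APAP array at 6 h stood apart in its control transcripts, genes were read only where several probe sets could be set against each other. A probe set is a group of short probes for 1 transcript region, and its level is given in log2 units after RMA. It was used where it had a single gene symbol and reached 5.66, the median of all values, on the higher of the 2 arrays. Of 12393 genes on the array, 4956 had more than 1 probe set and 2669 had at least 2 usable ones. A gene was counted as higher or lower where each of its usable probe sets differed by at least 1.5-fold in the same direction. By that rule 39 genes were higher with APAP (1.46%) and 115 were lower (4.31%), and at 2-fold the counts were 3 (0.112%) and 16 (0.599%). The counts depended on scaling: 52 higher and 87 lower under cyclic loess, 72 and 78 under quantile normalization, and 24 and 156 after median centring. Genes higher with APAP thus made up 25.3% of those counted as deposited, and 37.4%, 48.0% and 13.3% under these scalings. No gene was counted in the opposite direction under any of them. Over all 2669 genes the median difference was -0.09, or 0.01 under quantile normalization and -0.17 after centring. With no level filter it was 0.05 over 4956 genes, and over all probe sets the median was 0.08, so its sign depended on the filter. Differences should be read against these shifts.

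Acetaminophen is oxidised in hepatocytes by cytochrome P450 enzymes to NAPQI, a reactive quinone imine that is cleared by conjugation to glutathione. When glutathione runs short, NAPQI binds cell proteins, many of them mitochondrial, and liver toxicity follows. Responses known from acetaminophen exposure include the NRF2 antioxidant programme, the unfolded protein response of the endoplasmic reticulum (ER) with its PERK and ATF4 arm, heat shock genes, p53 targets and signalling through MAP kinases. AMAP, which carries the ring hydroxyl in the meta position in place of para, is named in the study's title as the less hepatotoxic compound.

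The APAP array at 6 h differed from the control array at 6 h in transcripts that do not come from the cells. The bacterial dap control RNA is read by separate probe sets along its length. The middle probe set minus the 3′ one was -1.72 log2 on the APAP array at 6 h and -0.51 on its control array. On both treated arrays of 24 h it was -1.58 (APAP) and -1.94 (AMAP), and on the other 6 arrays, that control included, it lay between -0.60 and -0.44. The cre control RNA set the APAP array at 6 h apart from every other array. Its 5′ minus 3′ difference was -1.12 there and between -0.36 and 0.00 on the other 8. For the cells' own actin, the middle probe set against the 3′ one was -0.87 with APAP at 6 h and -0.64 to -0.47 elsewhere, while its 5′ probe set against the 3′ one was -0.08, above the other 8 arrays at -0.47 to -0.13. The lower quartile of all values was 3.92 with APAP and 3.63 in control. The part of these array differences in the gene differences given here was not tested.

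**Figure D1:**
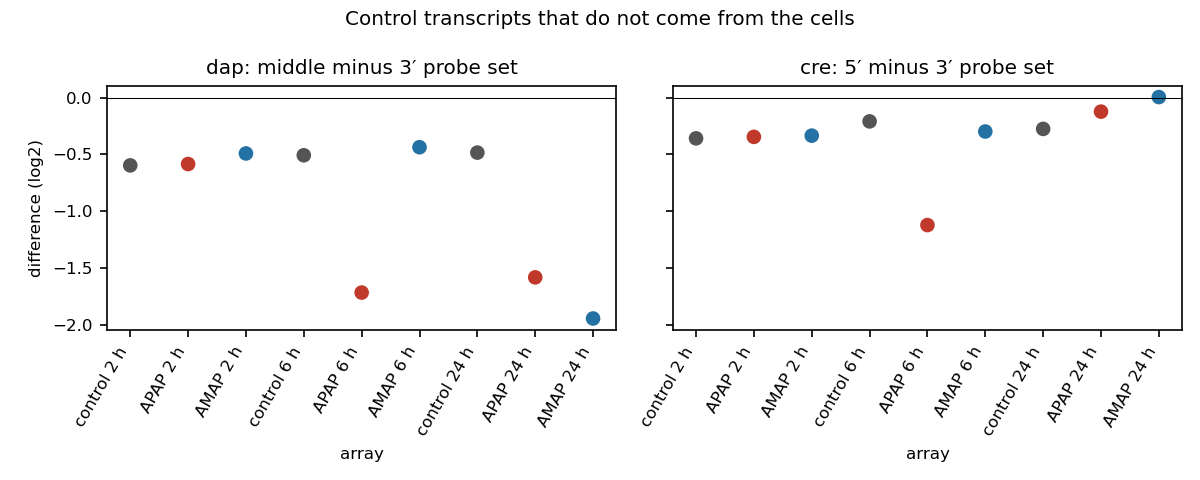
Log2 difference between probe sets of the same control transcript on each of the 9 arrays (grey control, red APAP, blue AMAP), dap on the left and cre on the right; each point is 1 array. APAP at 6 h lies at -1.72 for dap, beside both treated arrays of 24 h, and alone at -1.12 for cre.

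Probe sets of the same gene disagreed more here than at 2 h. The range of the difference among the usable probe sets of a gene had a median of 0.54 log2 and an upper quartile of 0.90. For APAP the median range was 0.17 at 2 h and 0.48 at 24 h, and with AMAP it was 0.35 after 6 h. Between control arrays it was 0.17 for 24 against 2 h, but 0.28 and 0.30 for the comparisons that hold the control array of 6 h. All usable probe sets pointed the same way in 1414 genes, 53% of those evaluated (95% Wilson interval 51.1% to 54.9%, counting error only). Of these, 538 pointed higher with APAP and 876 lower, and the other 1255 genes had probe sets of both signs. At least 1 probe set was 2-fold apart in 510 genes. In 100 of them (19.6%, against 5.77% of all evaluated genes) the gene met the 1.5-fold rule in every probe set, and in 181 (35.5%) another probe set had the opposite sign. At 2 h, 50 of 72 such genes (69.4%, against 4.8% of all evaluated there) met the rule. At both times genes chosen for a 2-fold probe set pass the rule more often than all genes by construction.

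**Figure D2:**
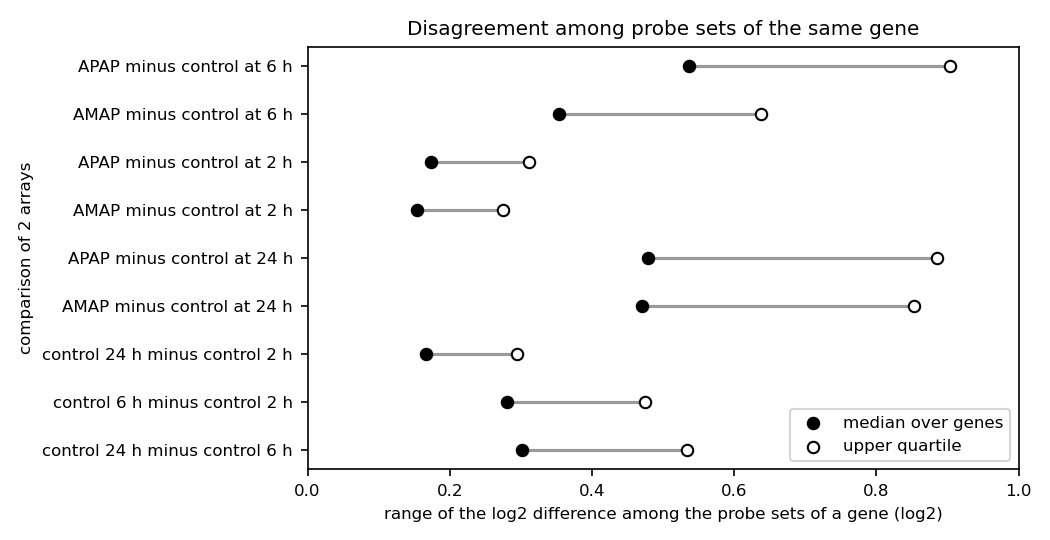
Range of the log2 difference among the usable probe sets of a gene, for 9 comparisons of 2 arrays; filled points are medians over genes and open points upper quartiles. APAP against control at 6 h has the widest ranges, 0.54 and 0.90, and the 2 h comparisons the narrowest among the treated ones.

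The control arrays of the other times give a scale for the spread of untreated cells. Between control arrays the same rule called 40 of 2564 genes for 24 against 2 h. It called 40 of 2611 for 6 against 2 h and 55 of 2619 for 24 against 6 h. For APAP against control at 6 h it called 154 of 2669. For AMAP at 6 h, which shares that control array, it called 21 higher and 21 lower of 2640. Of the 39 higher genes, 34 lay above all 3 control arrays in every usable probe set, and 20 were 1.5-fold above each of them. Of the 115 lower genes, 102 lay below all 3 and 60 were 1.5-fold below each. Over all evaluated genes, 14.6% lay above and 18% below the 3 controls, and 0.749% and 2.25% were 1.5-fold from each. The 3 controls include that of 6 h, which the call itself used. Genes 1.5-fold from each are therefore the same 20 and 60, and those shares are no separate comparison. The APAP array at 6 h was the highest or the lowest of all 9 arrays in every usable probe set for 25 of the higher and 68 of the lower genes, against 5.77% and 6.74% of all evaluated genes in those directions. Called genes were chosen for their difference on this array, which raises their shares in these counts by construction. At the threshold, the genes just inside were Adcy9 with a smallest difference of -0.587, Clpp with 0.588 and Tle1 with -0.589, and just outside were Srsf11 with -0.584, Chid1 with 0.578 and Rab43 with 0.578.

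The largest difference among the higher genes was that of Nectin2. This gene, coding for an adhesion molecule of epithelial junctions, went from 7.63 in control to 8.95 with APAP in a first probe set and from 7.34 to 8.45 in a second. Its median difference was 1.22, or 2.33-fold. Both probe sets were at their highest of the 9 arrays with APAP at 6 h, and APAP at 2 h came next at 8.52 and 8.0. AMAP at 6 h read 8.21 and 7.87. Crb3, the Crumbs protein that sets the apical side of epithelial cells, went from 6.96 to 8.08, from 5.13 to 6.28 and from 6.54 to 8.0 in its 3 probe sets. No other array reached these levels: the third probe set lay between 6.38 and 7.28 on the other 8. AMAP at 6 h was at 6.82, 5.54 and 6.38, near control. Cldn4, the tight junction claudin of the cholangiocyte marker list, went from 4.70 to 5.96 in its brightest probe set and was not evaluated. Genes of cell contact were called lower as well. Among them were Nectin3 (-1.23), of the same family as Nectin2, the adherens junction catenin Ctnna1 (-1.27), the desmosomal Pkp2 (-0.80) and Vcl (-0.85).

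Some higher genes code for secreted or lipid-carrying proteins, as do some lower ones (Fn1, Ccn1, Thbs1 and Fabp5, described further on). C1qtnf1, a secreted C1q and TNF related protein, went from 4.50 to 5.79 and from 5.28 to 6.32. C1qtnf1 was below the level filter in control and passed it only through the APAP array. Its control array of 6 h was the lowest of the controls, since those of 2 and 24 h were at 5.14 and 5.60, and AMAP at 6 h was at 5.56 and 5.95. Apom, the apolipoprotein M that hepatocytes load onto HDL, went from 7.67 to 8.67 and from 7.69 to 8.59. It was as high with APAP at 24 h (8.91 and 8.53), while AMAP at 6 h was at 7.95 and 8.08. Mydgf, a secreted growth factor, went from 9.58 to 10.57, from 6.73 to 7.75 and from 6.03 to 6.91. In its last 2 probe sets the control array of 24 h was at 7.60 and 6.85, close to APAP, and against the mean of the 3 controls Mydgf missed the 1.5-fold rule with a median of 0.75. Lgals2, a galectin, differed by 0.83, from 6.35 to 7.16 and from 7.54 to 8.39.

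Of genes in metabolism, Acaa1a, the peroxisomal thiolase of fatty acid oxidation, differed by 0.83, from 4.86 to 5.69 and from 7.52 to 8.35. Both of its probe sets have the _x_at suffix, which marks probes shared with other transcripts, so that a close copy of the gene could not be told apart. Crat, carnitine acetyltransferase, went from 7.83 to 8.45 and from 4.58 to 5.73. Both genes passed the level filter only narrowly in 1 probe set with APAP, and under cyclic loess and centring they were no longer evaluated. Slc19a1, the reduced folate carrier, went from 8.56 to 9.36 and from 8.24 to 9.02, above all other arrays. AMAP at 6 h was at 8.36 and 8.10.

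The higher genes also held regulators of transcription and mRNA. Tef, a transcription factor of circadian output, went from 7.28 to 8.22 and from 5.70 to 6.53, and AMAP at 6 h was at 6.96 and 5.11. At 24 h Tef was at 8.30 and 6.35 with APAP and at 8.24 and 6.39 with AMAP, so that all 3 of these arrays were above the 3 controls. Zfp36l2, which binds AU-rich mRNAs and speeds their decay, went from 9.35 to 10.16 and from 6.73 to 7.60. Against the mean of the control arrays of 2 and 24 h, neither Tef (0.76) nor Zfp36l2 (0.69) met the rule in every probe set. Stat5b, the transcription factor below growth hormone and cytokine receptors, went from 6.43 to 7.22 and from 6.31 to 7.03. Anxa6, a calcium-dependent membrane binder, differed by 0.94, from 8.06 to 9.09 and from 7.05 to 7.91. Serf1 differed by 0.89 over 3 probe sets, from 5.65 to 6.53, 5.22 to 6.29 and 5.16 to 6.04. All 3 were below the level filter in control and passed it only through the APAP array.

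**Figure D3:**
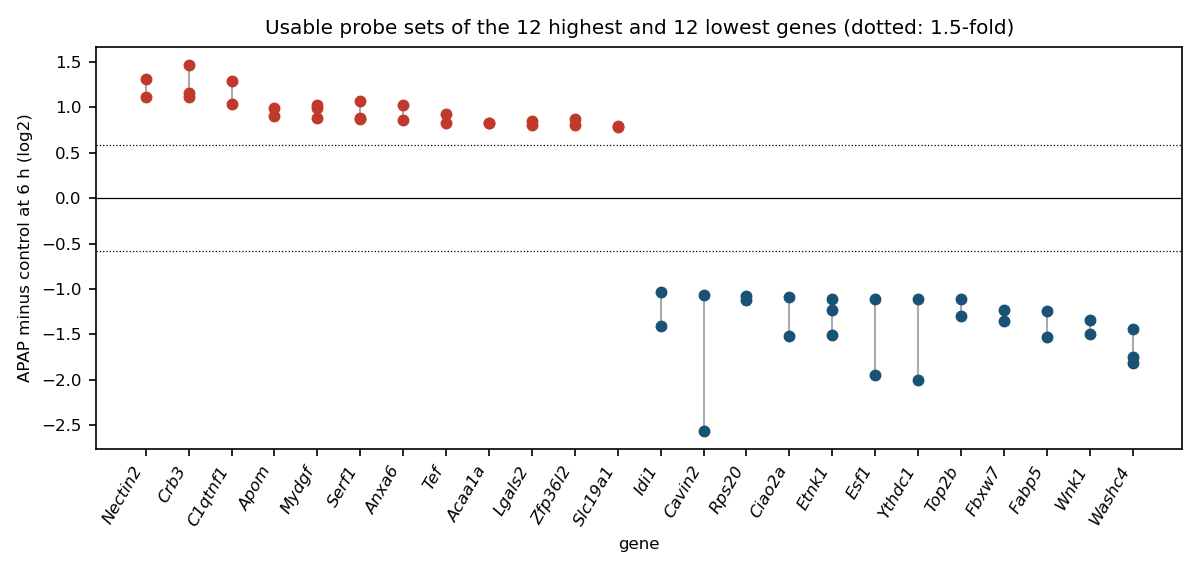
Log2 difference APAP minus control at 6 h for each usable probe set (points) of the 12 highest and 12 lowest genes, ordered by their smallest difference; dotted lines mark 1.5-fold. Differences of the higher genes lie between 0.78 and 1.46 and those of the lower genes between -1.03 and -2.56, with the widest spread in Cavin2.

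Genes lower with APAP were more numerous, and their differences were larger. Washc4, a subunit of the WASH complex that builds actin on endosomes, went from 8.19 to 6.45, from 6.43 to 4.99 and from 6.67 to 4.85, a median of -1.74 or 3.35-fold. In all 3 probe sets this was the lowest of the 9 arrays, and AMAP at 6 h was at 7.98, 7.01 and 7.23. Wnk1, a kinase that controls ion cotransporters, went from 9.73 to 8.38 and from 8.22 to 6.73, and no other array was as low. Golga4, a golgin that tethers vesicles at the trans-Golgi, differed by -2.16 and -0.87. A further probe set, which did not pass the level filter, differed by -0.33.

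The list of vesicle transport and cytoskeleton genes, the largest list evaluated, held more lower members than any other. Of 51 evaluated, 6 were lower and 0 higher (11.8% against 4.31% of all genes), 28 had all probe sets lower and 7 all higher, and the median was -0.26. The lower ones were Golga4, the cytoskeletal linkers Dst (-1.05) and Macf1 (-1.21), the adhesion protein Vcl (-0.85), the actin-binding Cald1 and the clathrin light chain Clta. Under cyclic loess and under quantile normalization 3 of the list were lower, Golga4, Dst and Macf1. Vcl lost the call under both, and neither Vcl (-0.50), Dst nor Macf1 met the rule against the mean of the 3 controls. Dst and Vcl were higher in the control array of 6 h than in either of the other controls: in its first probe set Dst was at 8.09 in control at 6 h, 7.35 at 2 h and 7.60 at 24 h, and at 7.25 with APAP. Cavin2, a coat protein of caveolae, had the largest median difference of the named genes (-1.81), but its probe sets differed by -1.06 and -2.56. Its control levels varied too, from 5.84 to 6.84 in the second probe set, where APAP at 6 h was at 4.28.

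Among the lower genes of transcription and RNA handling, Top2b, a DNA topoisomerase that also acts in non-dividing cells, went from 7.86 to 6.74 and from 7.22 to 5.92. Ythdc1, the nuclear reader of m6A in RNA, went from 7.0 to 5.89 and from 8.07 to 6.07. Its second probe set lay between 8.13 and 8.50 on the other 7 arrays, so that APAP at 6 h alone was low. Esf1, a nucleolar protein of rRNA processing, differed by -1.11 and -1.95. Tra2b, a splicing activator of the SR type, went from 9.78 to 8.72 and from 8.88 to 8.0, with APAP at 24 h as low, at 8.62 and 8.03. It was the only called member among 42 evaluated genes of the splicing list (2.38% against 4.31%). That list leaves out Sfpq, a splicing factor called lower with a median of -1.18 over 4 probe sets. Of the 42, 19 had all probe sets lower and 3 all higher, with a median of -0.22. In the chromatin list 1 of 34 was lower (2.94% against 4.31%), the nucleosome binder Hmgn1 (-0.66), and it lost the call under cyclic loess (-0.54) and quantile normalization. That list had 13 members with all probe sets lower and 3 with all higher, and a median of -0.31.

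Several lower genes act in protein turnover and metal cofactor assembly. Fbxw7, the receptor by which an SCF ubiquitin ligase takes up cyclin E and MYC, went from 5.69 to 4.34 and from 6.58 to 5.35. On the other 7 arrays its probe sets stayed at 5.29 to 5.84 and 6.15 to 6.71, so APAP at 6 h was the single low array. Its first probe set passed the level filter by a small margin. Under quantile normalization and against the mean of other controls the gene was not evaluated. In the ubiquitin and proteasome list 2 of 32 were lower, a share of 6.25% near the 4.31% of all genes: the cullin Cul4b (-1.15) and the proteasome ATPase Psmc6 (-0.82), and the median was -0.24. Cul4b missed the rule against the mean of the 3 controls and Psmc6 under cyclic loess. Ciao2a, of the cytosolic iron-sulfur assembly machinery, went from 7.86 to 6.78 and from 9.37 to 7.85. In its first probe set the control array of 6 h was itself below those of 2 and 24 h, at 8.90 and 8.97, and both treated arrays of 24 h were low, at 7.44 and 5.94.

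Lipid genes were found on both sides. Fabp5, a fatty acid carrier, went from 11.30 to 9.77 and from 10.01 to 8.76, with APAP at 24 h at 10.25 and 9.24 and AMAP at 24 h at 10.19 and 9.49. Idi1, the isomerase that makes dimethylallyl diphosphate for cholesterol synthesis, went from 7.11 to 5.70 and from 10.06 to 9.02. It was the only called member of 19 evaluated genes of cholesterol and fatty acid synthesis (5.26% against 4.31%), 9 of which had all probe sets lower and 4 all higher, with a median of -0.19. In fatty acid oxidation and lipid handling, 2 of 9 evaluated genes were higher (Acaa1a and Crat) and 1 was lower, against 1.46% and 4.31% of all genes. The lower one was the arachidonate-activating ligase Acsl4 (-0.75), which lost the call under cyclic loess and quantile normalization. Etnk1, the ethanolamine kinase of phospholipid synthesis, went from 8.84 to 7.34, from 5.84 to 4.74 and from 7.39 to 6.16. The ribosomal protein gene Rps20 differed by -1.10 in 2 probe sets, both of the _x_at kind, and ribosomal protein genes have many near-identical copies, so that value is uncertain.

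**Figure D4:**
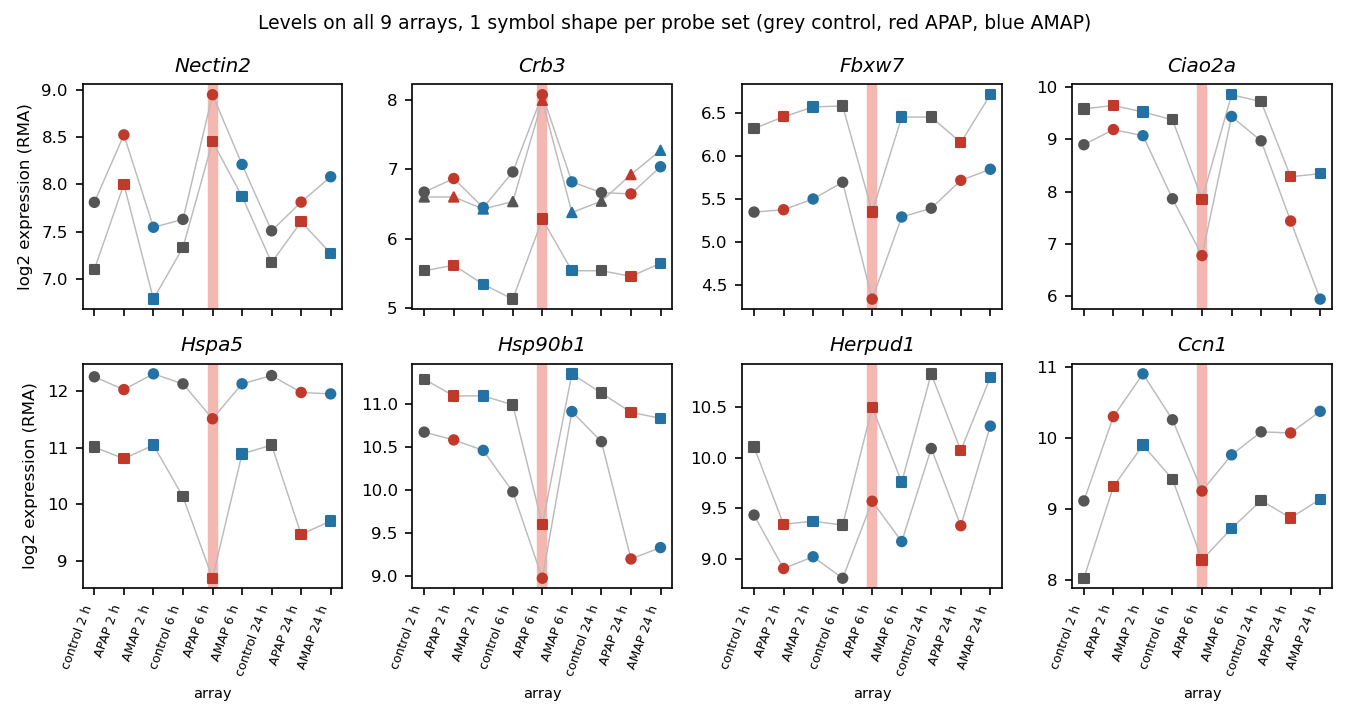
Log2 levels of 8 genes on all 9 arrays, with 1 symbol shape per usable probe set (grey control, red APAP, blue AMAP; the shaded column is APAP at 6 h); lines join the arrays of a probe set to guide the eye. Nectin2 and Crb3 peak and Fbxw7 dips at APAP at 6 h, whereas Herpud1 at APAP at 6 h (9.57 and 10.50) lies between control values of 6 and 24 h.

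Genes of the ER stress response were called in both directions. In the unfolded protein response, IRE1, PERK and ATF6 sense misfolded protein in the ER, and ATF6 and XBP1 raise chaperone genes through the ER stress response element. ATF4, below PERK, raises amino acid and stress genes. Promoter sequences of the 3 called genes of this response are shown because they carry these elements and yet the genes differed in opposite directions. The lines give bases 160 to 31 before the transcription start (RefSeq, GRCm38.p6, 5′ to 3′ on the gene's strand). Capitals mark matches, on either strand, to the ER stress response element ERSE, CCAAT and CCACG with 9 bases of any kind between them, in Hspa5 and Hsp90b1. A further ERSE match of Hsp90b1 begins 212 bases before the start, outside the stretch printed. In Herpud1 they mark ERSE-II, ATTGG and CCACG with 1 base between them, and the ATF4 element TGATGNAA, which is read there on the opposite strand.
Hspa5, chr2:34771930-34772059, plus strand: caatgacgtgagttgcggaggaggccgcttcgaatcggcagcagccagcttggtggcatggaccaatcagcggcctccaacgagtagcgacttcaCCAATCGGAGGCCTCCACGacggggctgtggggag
Hsp90b1, chr10:86705475-86705604, minus strand: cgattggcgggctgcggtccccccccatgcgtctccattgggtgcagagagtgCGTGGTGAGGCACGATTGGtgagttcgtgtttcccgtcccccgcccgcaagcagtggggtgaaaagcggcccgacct
Herpud1, chr8:94386269-94386398, plus strand: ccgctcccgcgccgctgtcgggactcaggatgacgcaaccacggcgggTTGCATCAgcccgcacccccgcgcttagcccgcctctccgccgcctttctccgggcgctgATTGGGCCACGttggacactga

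Hspa5, the ER chaperone BiP, went from 12.12 to 11.51 and from 10.14 to 8.70, a median difference of -1.02. Its probe sets agreed in direction and not in size, and the first, at -0.61, fell short of 1.5-fold under cyclic loess and quantile normalization. In the second the control array of 6 h was already below the other controls, at 11.01 and 11.05, and the treated arrays of 24 h were at 9.47 and 9.71. Hsp90b1, the ER chaperone GRP94, went from 9.98 to 8.98 and from 10.99 to 9.60 and kept its call under all scalings run. AMAP at 6 h was at 12.12 and 10.89 for Hspa5 and at 10.91 and 11.35 for Hsp90b1, not below control in either gene. Herpud1, an ER membrane protein of ER-associated degradation, went the other way, from 8.81 to 9.57 and from 9.33 to 10.50. That direction rests on the control array of 6 h: the controls were at 9.43 and 10.11 at 2 h and at 10.09 and 10.83 at 24 h. Against the mean of the controls of 2 and 24 h the Herpud1 difference was -0.082.

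Of the 14 evaluated ER chaperone and unfolded protein response genes, Hspa5 and Hsp90b1 were lower (14.3% against 4.31% of all genes) and 0 were higher. Of the list, 8 had probe sets of both signs and the list median was -0.06 (0.03 under cyclic loess). Herpud1 was the 1 called member of 20 evaluated ATF4 genes (5% against 1.46% higher), of which 9 had all probe sets higher and 5 all lower. The median of that list was 0.19, the highest of the 23 pathway lists, but -0.01 against the mean of the 3 controls. Not every gene with an ERSE was lower. Of 2197 evaluated genes with a promoter in the RefSeq table, 7 held an ERSE between 250 bases before and 50 after the start (0.319%, against 0.137% of all genes in that table). Calr and Canx, chaperones of glycoprotein folding, were among them with medians of 0.00 and -0.51 and probe sets of both signs, and Alg12, a mannosyltransferase of glycan assembly, had 0.47. Ero1b, an ER oxidase, had -0.27 (-0.53 and -0.01), and Dnajc3, a co-chaperone of BiP, -0.01. Of the 7, 3 had all probe sets lower and 1 all higher, with a median of -0.27. ERSE-II was in 4 evaluated genes (0.182%, against 0.0444% of all genes in the table). Besides Herpud1 these were Lgalsl, lower by a median of -1.31, Krtcap2 and Rbm39. The ATF4 element was in 57 evaluated genes (2.59%, against 4.51% of all genes in the table). Of these 57, 2 were higher and 4 lower, where 1.46% and 4.31% of all evaluated genes were. A match in these letters is a description and not a binding site. Median GC content of the promoters was 62.5% for the higher and for the lower genes and 62.0% for all evaluated.

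Heat shock genes, which code for chaperones of the cytosol and mitochondria, had the lowest median of the 23 pathway lists, -0.41 over 16 evaluated genes. It stayed the lowest of these under each of the 3 scalings, at -0.34, -0.30 and -0.49. Against the mean of the 3 controls it was -0.44, and RNA splicing was lower at -0.51. Dnaja1, a co-chaperone of the HSP40 class, differed by -0.69 and Hsph1, of the HSP110 class, by -0.70. These were the 2 called members (12.5% against 4.31% of all genes), and 8 of 16 had all probe sets lower and 3 all higher. Neither call held under cyclic loess, quantile normalization or against the mean of the 3 controls. In the brighter probe set of Dnaja1 the control array of 6 h was the highest of the 3 controls, at 10.49 against 10.31 and 10.29, and APAP was at 9.77. For Hsph1, APAP was at 7.35 and 8.05, and the control of 24 h lay below it in the first probe set, at 7.27, and above it in the second, at 8.28.

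Of immediate-early and matrix genes lower at 6 h, Ccn1 and Thbs1 were higher with APAP at 2 h, by 1.24 and 1.84. With AMAP at 2 h they were higher as well, by 1.83 and 1.19. Ccn1, a secreted matricellular protein and immediate-early gene, went from 10.25 to 9.25 and from 9.41 to 8.28 at 6 h. The controls ranged from 9.11 to 10.25 in the first probe set and from 8.02 to 9.41 in the second, with the lowest at 2 h, so APAP at 6 h lay inside their range. Thbs1, the matrix glycoprotein thrombospondin 1, went from 8.67 to 7.93 and from 8.92 to 8.29, with controls of 7.44 and 7.87 at 2 h and 7.36 and 7.77 at 24 h. Against the mean of the 3 controls it was higher by 0.11. Fn1, fibronectin, differed by -0.86 in its bright probe set, from 11.79 to 10.93, and by -2.18 in its dim one, from 6.34 to 4.16, and both were the lowest of the 9 arrays. In the matrix and TGF-beta list 3 of 22 evaluated genes were lower (13.6% against 4.31% of all genes) and 0 higher, and the median was -0.24. Under cyclic loess and quantile normalization 2 of the list were lower, and 1 against the mean of the 3 controls. In the immediate-early and MAPK feedback list Ccn1 was the only call among 12 (8.33% against 4.31%), with Jun at -0.69 (-0.82 and -0.57) and the AP-1 partner Fosl1 at 0.53 (0.34 and 0.73). Jun and Fosl1 are named outside the naming rule, with their values in view.

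Growth factor signalling bears on TAMH cells through their TGF-alpha transgene, since TGF-alpha is a ligand of the EGF receptor. Of 20 evaluated genes of this pathway, 1 was higher, Stat5b, and 2 were lower (5% and 10%, against 1.46% and 4.31% of all genes). Rasa1, the GTPase-activating protein for RAS, went from 7.62 to 5.38 and from 8.10 to 7.14. Cbl, the ubiquitin ligase that sends the receptor for degradation, went from 7.44 to 5.80 and from 5.93 to 5.34. The second probe set of Cbl lay at the threshold, and the call was lost under quantile normalization and against the mean of the 3 controls. The list median was -0.04 (0.03 under cyclic loess).

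p53 targets showed no call in either direction among 13 evaluated, where 1.46% of all genes were higher and 4.31% lower. At these shares a list of 13 would hold few calls. Cdkn1a, which p53 induces to halt the cell cycle, was at 6.62 and 9.17 in control and at 7.08 and 9.57 with APAP, a median difference of 0.44. Its controls reached 7.01 and 9.43 at 24 h, so that the APAP values were above the controls by less than the controls differed among themselves. Mdm2, the ubiquitin ligase that limits p53, was at 9.32 and 9.24 in control and at 9.22 and 8.91 with APAP. With AMAP at 6 h, Cdkn1a was at 6.11 and 8.58 and Mdm2 at 9.18 and 8.91. These share the control array with the APAP comparison. At 24 h with APAP, Cdkn1a was at 8.60 and 10.85 and Mdm2 at 10.27 and 10.82. In the apoptosis list 1 of 20 was lower (5% against 4.31%), Apaf1, the scaffold of the apoptosome, from 6.69 to 5.91 and from 6.69 to 5.47, the lowest of the 9 arrays in both probe sets.

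Many lists held no called gene in these arrays. These were NRF2 targets and glutathione (13 evaluated, median 0.09), mitosis (17, -0.21), DNA replication (20, -0.04), ribosome biogenesis (19, -0.02), the respiratory chain (27, -0.12), glycolysis and hypoxia (16, 0.05), NF-kB and inflammation (11, 0.00), xenobiotic metabolism (3, -0.08) and hepatocyte identity (6, 0.04). With 39 and 115 of 2669 genes called, lists of this size would hold few calls at the background share. Counted once each, 447 of the 2669 evaluated genes were in any of the 23 pathway lists. Of these 447, 4 were higher and 22 lower, where 1.46% and 4.31% of all evaluated genes were. The sign of the median changed under at least 1 of the 3 scalings in 12 of the 23 lists. The vesicle, chromatin, ubiquitin, splicing, matrix, mitosis, cholesterol, immediate-early, heat shock and fatty acid oxidation lists kept theirs below 0 and the ATF4 list kept its above 0. In all, 128 of the 154 called genes were in no pathway list, as were most of the 2669 evaluated genes.

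**Figure D5:**
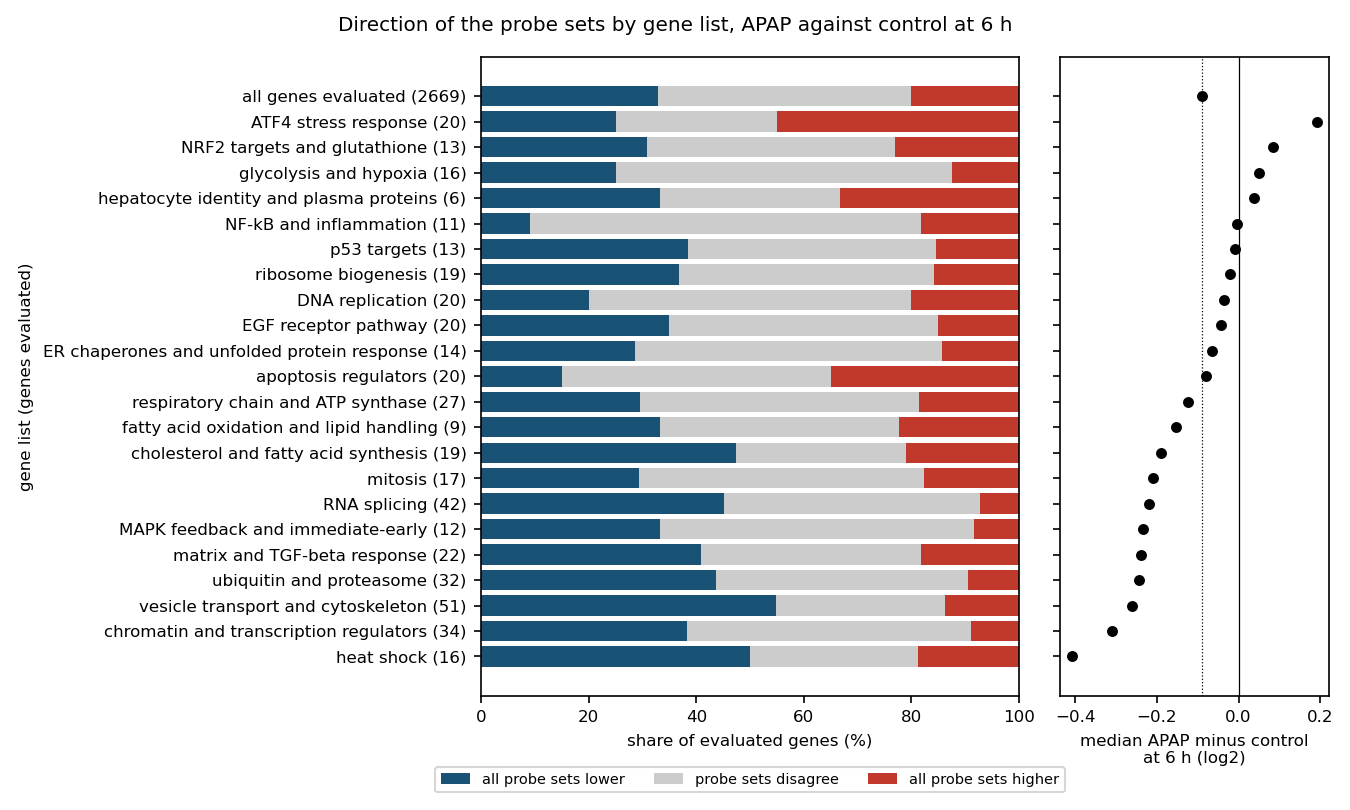
Left, share of evaluated genes whose usable probe sets are all lower (blue), all higher (red) or of both signs (grey) with APAP at 6 h, for each pathway list with at least 6 evaluated genes (number in brackets) and for all 2669; right, median log2 difference, with the dotted line at -0.09 for all genes. ATF4 genes stand at the upper end, 0.19, and heat shock genes at the lower, -0.41.

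Genes called at 6 h were followed to the other times, whose arrays are not shared with this comparison. Of the 39 higher genes 32 were also evaluated for APAP at 2 h, and 2 were higher there, Nectin2 and Pdgfb, or 6.25% against 1.75% of all genes evaluated at both times. At 24 h, 5 of 34 were higher (14.7% against 4.0%), namely Apom, Serf1, Aebp1, Gjb1 and Hcfc1r1. In the opposite direction, 1 of 32 was lower at 2 h (3.125% against 2.94%) and 1 of 34 at 24 h (2.94% against 3.03%). Of the 115 lower genes, 6 of 110 were lower at 2 h (5.45% against 2.94%) and 13 of 110 at 24 h (11.8% against 3.03%). The 13 included Ciao2a, Fabp5, Rps20, Tra2b and Sfpq. Called higher instead were 4 of 110 at 2 h (3.64% against 1.75%) and 2 of 110 at 24 h (1.82% against 4.0%). Those at 2 h were Ankrd1, Cavin2, Ccn1 and Thbs1. With AMAP at 24 h, 14 of 112 were lower (12.5% against 1.68%), while with AMAP at 2 h the count was 0 of 111 (0% against 0.914%). The APAP array at 6 h and both treated arrays of 24 h share the low dap ratio given above, and its part in these counts was not tested. Across genes, which are not independent replicates, the 6 h difference had r = 0.10 (rho 0.10) with APAP at 2 h over 2517 genes and r = 0.37 (rho 0.38) with APAP at 24 h over 2573 genes. With AMAP it was r = -0.10 (rho -0.09) at 2 h over 2516 genes and r = 0.55 (rho 0.56) at 24 h over 2567 genes, the array with the lowest dap ratio.

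Both treated arrays of 24 h were then read together for the called genes, beside the 2539 genes evaluated in all 3 comparisons. The 2 comparisons of 24 h subtract the same control array, so agreement between the compounds there is not 2 separate checks. Of the 115 lower genes, 16 had medians above control with both compounds at 24 h (13.9%, against 39.9% of those genes), among them Fbxw7, Cul4b, Apaf1, Dnaja1, Hsph1 and the transcription factor Creb1. Another 77 had medians below control with both (67.0% against 34.7%), and 24 of these were past 1.5-fold with both (20.9% against 5.47%). These 24 included Washc4, Fabp5, Top2b, Ciao2a, Hsp90b1, Hspa5, Rasa1 and Fn1. Of the 39 higher genes, 25 had medians above control with both compounds at 24 h (64.1% against 39.9%) and 1, Limd2, below (2.56% against 34.7%). Serf1 was the only one past 1.5-fold with both (2.56% against 1.77%).

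The line kept hepatocyte transcripts in both arrays. Of 18 hepatocyte markers on the array, 14 reached the median level of the arrays with APAP and 15 in control. Albumin (Alb) was at 12.80 with APAP and 13.03 in control, and Apob went from 10.73 to 9.09 in its brightest probe set. Other members of the list were higher with APAP, among them Cps1 (6.32 to 7.43), Ambp (10.06 to 10.63) and Hpx (10.77 to 11.26). Fgb (9.00 to 8.85) and Rbp4 (10.85 to 10.80) were lower. The asialoglycoprotein receptor genes Asgr1 and Asgr2 and the P450 gene Cyp2e1, which oxidises acetaminophen to NAPQI in liver, were below the median on both arrays, with Cyp2e1 at 3.06 in control and 3.10 with APAP. Cyp3a11, another P450 of that route, went from 6.37 to 5.61. The evaluated markers were Apoa1, at 0.47 with probe sets from 0.15 to 0.53, Hnf4a at 0.62 (0.09 to 1.12) and Ttr at -0.73 (-1.37 to -0.01), and none met the rule. Of markers of other liver cells, 0 of 14 endothelial and 1 of 18 macrophage markers reached it on either array, and 3 of 15 stellate markers with APAP against 2 in control. For cholangiocyte markers the counts were 5 and 4 of 9, with Krt7 from 8.98 to 9.61, Krt19 from 7.38 to 7.55 and Sox9 at 0.45 (0.27 and 0.63). Other members of that list were lower with APAP: Cdh1 went from 5.02 to 4.56, Onecut1 from 4.51 to 3.79 and Epcam from 4.24 to 4.20. The rest of the list was higher. Mean marker levels with APAP against control were 8.76 and 8.67 for hepatocyte, 4.21 and 3.98 for macrophage, 5.21 and 4.83 for stellate, 4.09 and 3.58 for endothelial and 5.77 and 5.57 for cholangiocyte markers. All 5 means were higher with APAP, and the macrophage, stellate and endothelial means exceeded those of all other 8 arrays at levels mostly below the median. The part of these marker differences in the gene differences was not tested.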

How the data were processed

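Total RNA of TAMH cells was hybridised to 9 Affymetrix Mouse 430A_2 arrays. The deposited values are log2 expression per probe set, which per the submitters' processing notes the authors computed by RMA (Affymetrix Expression Console). Neither a version nor a joint run of all arrays is stated in the sources used here. RMA equalises intensity distributions, so a change of total RNA would not show. Groups came from sample titles.

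Of 22690 probe sets, 64 were controls; the platform annotation gave 1 symbol for 20380, several for 691 and none for 1555. Probe sequences were not used here. Values of the arrays of 6 h were subtracted (Python 3.11.15, pandas 2.3.3) and genes evaluated by their probe sets as described; the steps were tested on simulated data. Cyclic loess and quantile normalization used limma 3.58.1 in R 4.3.3. Named were the 12 highest and 12 lowest called genes by smallest difference, up to 4 called members per pathway list, Cdkn1a, Mdm2 and evaluated markers; other names were chosen after their values were seen. The comparison, its members and the 23 pathway and 5 cell type lists were chosen with earlier results of these data known. With 1 array per group no test was made, and the number of arrays limits the precision.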

Additional observations from a re-analysis of the deposited data

Results flagged for a closer look

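Of the genes named by the rule, 5 that were called at 6 h were called in the opposite direction with APAP at another time; with 1 array per group this difference between times was not tested. Cavin2 differed from control by 0.78 at 2 h and by -1.81 at 6 h. Ccn1 differed by 1.24 at 2 h and by -1.07 at 6 h, and its 6 h control was above its 2 h control. Thbs1 differed by 1.84 at 2 h and by -0.69 at 6 h, and its median control level was 7.65 at 2 h and 8.80 at 6 h. With AMAP at 2 h, Ccn1 and Thbs1 differed by 1.83 and 1.19, and Cavin2 by -0.03. Apaf1 differed by -1.01 at 6 h and by 0.66 at 24 h. Herpud1 differed by 0.96 at 6 h and by -0.76 at 24 h. Its median control level was 9.07 at 6 h and 10.46 at 24 h, and with APAP it was 10.04 and 9.70.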

How the results depend on the processing

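No paired analysis was possible because each group has 1 array and no replicate numbers. Of the settings set in advance, the counts of higher and lower genes (39 and 115) became 3 and 16 at 2-fold, 97 and 107 with no filter on low values, 32 and 76 with both arrays at or above the median, 99 and 345 with the median probe set past the fold, and 16 and 72 without _s_at, _x_at and _a_at probe sets. They were 72 and 78 under quantile normalization, 24 and 156 after centring, 53 and 121 against the mean of the 3 controls, and 75 and 139 against controls of 2 and 24 h. A setting chosen after seeing the data, 1.5-fold from each control, gave 20 and 60. Of the 154 called genes, 123 were shared under cyclic loess, 117 under quantile normalization and 94 against controls of 2 and 24 h; the cause was not tested. Probe sets agreed in sign in 56.2% of genes without suffixed probe sets. Pathway members higher (4) were 2 after centring and 0 at 2-fold, and those lower (22) were 12 under cyclic loess, 34 after centring and 3 at 2-fold. Genes called alike at 6 h and another time were 0 of 2 (higher, 2 h), 0 of 5 (higher, 24 h), 0 of 6 (lower, 2 h) and 2 of 13 (lower, 24 h) at 2-fold, where fewer genes pass by construction. Against controls of 2 and 24 h, Herpud1 reversed to -0.082 and Thbs1 to 0.50, and Thbs1 to 0.11 against the mean of the 3. Of 46 named called genes, 34 kept the call under all 3 scalings and 23 under these and both other control choices.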
